A study of Mus musculus with 11 samples.

Results

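The mRNAs of the mitochondrial ribosomal proteins, and not the proteins themselves, were measured in brain tissue of fed and fasted mice. They were taken as every probe that the platform annotation pairs with a single gene symbol beginning with Mrpl (large subunit) or Mrps (small subunit) and a number, which gave 72 genes with 85 probes of 18048 genes with 21590 such probes. The large subunit had 44 genes with 52 probes and the small subunit 28 genes with 33 probes, and 11 of the 72 genes had more than 1 probe. The animals were wild-type female SV/129 mice aged 10 weeks. Food was withheld from 6 mice for 16 hours from the start of the dark phase, and 6 mice kept their chow. Water was available to all. The RNA of a feeding state's 6 mice was combined, for hypothalamus and for cerebellum, and each of the 4 resulting pools was hybridised in triplicate to CodeLink whole genome arrays, on which biotin-labelled cRNA is read in 1 colour. A cerebellum array of the fasted mice was discarded by the submitters, so the groups held 3 arrays of fed hypothalamus, 3 of fasted hypothalamus, 3 of fed cerebellum and 2 of fasted cerebellum. All arrays of a group thus carry 1 pool, and the p-values measure the spread between hybridisations and compare pools, not feeding states.

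Mitochondria carry ribosomes of their own, which translate the few proteins that mitochondrial DNA still encodes, nearly all of them subunits of the respiratory chain and ATP synthase. The RNA of these ribosomes comes from mitochondrial DNA, but every one of their proteins is encoded in the nucleus, made in the cytosol and imported. The small subunit holds the mRNA and reads its codons, and the large subunit joins the amino acids and releases the new chain through an exit tunnel at the inner membrane. Names do not always follow the structure. Mrps30 and Mrps18a were named as small subunit proteins and sit in the large subunit in solved structures, and Mrps36 is now regarded as a component of the oxoglutarate dehydrogenase complex. Counts here follow the names.

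Promoters of nuclear genes for mitochondrial proteins are known for sites of NRF1, of ETS family factors such as GABP, and of YY1. RefSeq promoter windows of GRCm38.p6, from 250 bases before to 50 bases after a gene's start, existed for 63 of the 72 genes and gave 69 windows. They were searched on both strands for GCGCANGCG (the core of the NRF1 site), CTTCCGG (ETS) and AANATGGCG (YY1). A YY1 match ends in the letters with which an NRF1 match begins, so matches to these motifs can overlap. The ETS letters were in 33.3% of the member windows and in 11.6% of the windows of protein-coding genes, the NRF1 letters in 18.8% and 8.58%, and the YY1 letters in 15.9% and 3.12%. At least 1 of the motifs was in 55.1% of member windows, in 20.4% of those of protein-coding genes and in 15.4% of all 32851 windows. The 100 bases before the start are shown for genes whose values are described below, with matched letters in capitals. Mrpl51, Mrpl43 and Mrps18a held ETS letters, Mrpl57 and Mrpl17 held NRF1 letters, and the stretches of Mrpl55 and Mrps5 held no match.
Mrpl51 (chr6:125192100-125192199, plus strand): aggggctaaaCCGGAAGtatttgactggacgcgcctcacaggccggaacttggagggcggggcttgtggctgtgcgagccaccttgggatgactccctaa
Mrpl43 (chr19:45006443-45006542, minus strand): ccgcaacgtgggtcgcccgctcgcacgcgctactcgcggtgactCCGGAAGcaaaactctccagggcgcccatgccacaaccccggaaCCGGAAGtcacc
Mrps18a (chr17:46110904-46111003, plus strand): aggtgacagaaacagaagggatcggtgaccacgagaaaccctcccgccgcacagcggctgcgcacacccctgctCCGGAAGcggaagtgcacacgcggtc
Mrpl57 (chr14:57826139-57826238, plus strand): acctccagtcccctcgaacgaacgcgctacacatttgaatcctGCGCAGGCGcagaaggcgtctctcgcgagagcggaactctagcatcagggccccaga
Mrpl17 (chr7:105811088-105811187, minus strand): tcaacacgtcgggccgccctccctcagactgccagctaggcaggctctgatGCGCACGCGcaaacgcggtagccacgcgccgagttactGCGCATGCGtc
Mrpl55 (chr11:59202386-59202485, plus strand): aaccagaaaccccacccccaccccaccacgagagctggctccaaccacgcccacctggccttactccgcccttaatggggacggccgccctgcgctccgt
Mrps5 (chr2:127587326-127587425, plus strand): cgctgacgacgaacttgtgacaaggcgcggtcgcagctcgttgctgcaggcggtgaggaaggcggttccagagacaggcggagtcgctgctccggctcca

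Among the genes with a lower call in fasted hypothalamus, 10 of 24 windows held the ETS letters (41.7%) and 2 held the NRF1 letters (8.33%). Among the other members the ETS letters were in 13 of 45 windows (28.9%) and the NRF1 letters in 11 (24.4%). The YY1 letters were in 6 of the former windows and 5 of the latter. These shares are descriptions of letters in a window and show no binding.

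A deposited value is a probe's ratio to its median over the fed arrays of that region, so the middle fed array is at 1. They were divided by each array's median, and changes are given as log2 of fasted over fed with the standard error of the fit. A probe is called where limma's adjusted p over all 34999 probes is under 0.05. Ratios keep no signal level. Neither levels of different genes, nor levels of hypothalamus and cerebellum, nor the identity of the dissected tissue from its markers could be assessed, and a probe near background could not be recognised. No member probe was under the floor of 0.1 that was set on the scaled ratios. The residual SD between arrays of a group had a median of 0.0826 log2 units over member probes and 0.0896 over all probes.

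In fasted hypothalamus the mRNAs of the mitochondrial ribosomal proteins were lower by a small amount. Of the 85 probes, 25 were called lower and 1 higher, and 59 were not called. Over all probes 7.89% were called lower and 6.34% higher. The median change of the members was -0.15 on the log2 scale, that is 9.66% lower, against 0.0015 over all probes. A change below 0 was measured for 74 of the 85 member probes, and 49.6% of all probes were below 0. All fasted arrays lay below all fed arrays for 47 member probes (55.3%) and above them for 3 (3.53%). Over all probes these shares were 19.5% and 17.8%. The changes were narrow in size and ran from -0.37 to 0.28. A change of 1.2-fold in either direction was passed by 12 member probes (14.1%), against 18.5% of all probes.

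The lower median was present on each fasted array of hypothalamus. There the median log2 ratio of the members was 0.033, 0 and -0.018 on the fed arrays and -0.13, -0.15 and -0.14 on the fasted arrays, so the groups did not overlap. In cerebellum the members' median was 0, 0.002 and -0.042 on the fed arrays and 0.045 and 0.028 on the fasted arrays, with the fasted arrays above all fed arrays. The pooled SD of this median between arrays of a group was 0.020.

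**Figure D1:**
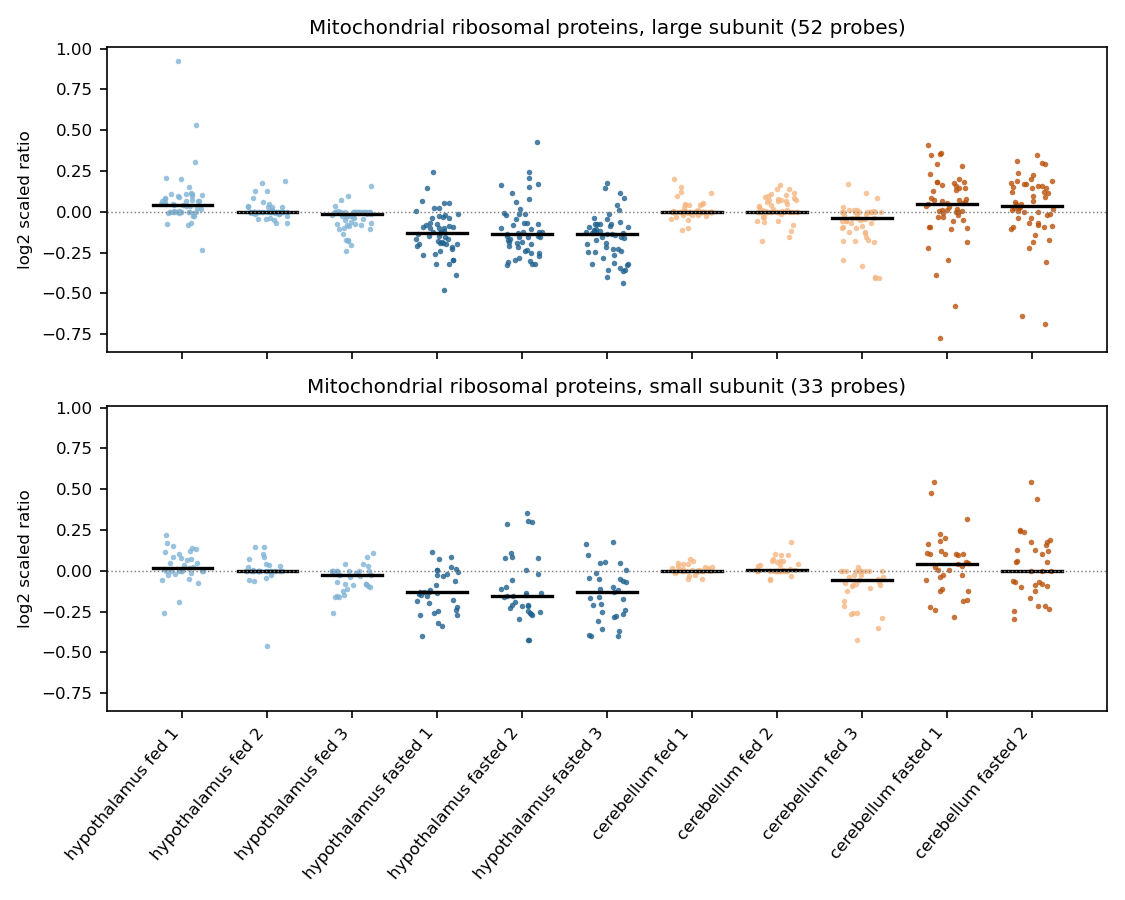
Log2 scaled ratio (y axis) of each member probe on each of the 11 arrays (x axis), with large subunit probes above and small subunit probes below. Points are probes and black bars are medians. On the 3 fasted arrays of hypothalamus the medians of both subunits lie below those of all fed arrays of hypothalamus.

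The share of lower calls in hypothalamus was close in the large and the small subunit. The large subunit had 15 probes called lower of 52 (28.8%) and 1 called higher, with a median of -0.15, and the small subunit had 10 called lower of 33 (30.3%), with a median of -0.13. The small subunit had 0 probes called higher by limma, and 0 at an unadjusted p under 0.05. The difference between the subunits was not tested.

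Among large subunit proteins at the exit tunnel, Mrpl23, which surrounds the tunnel's exit, had scaled ratios of 1.08, 1.00 and 0.971 on the fed and 0.873, 0.802 and 0.782 on the fasted arrays of hypothalamus. Each fasted value was below each fed value, and the change was -0.31 ± 0.06 (adjusted p = 0.0132). Mrpl17, also at the exit, was called lower with 1 of its 3 probes, at -0.32 ± 0.09 (adjusted p = 0.0401), while its other probes were at -0.21 (adjusted p = 0.0712) and -0.16 (adjusted p = 0.680). Mrpl4, which lines the tunnel, fell by 0.18 (adjusted p = 0.0408). Mrpl24, another protein of the exit, was at -0.19 and Mrpl45, which ties the ribosome to the inner membrane, at -0.16, and neither was called in hypothalamus.

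Of the proteins in the central protuberance, the crown of the large subunit, Mrpl40 had fed ratios of 1.00, 0.991 and 1.00 and fasted ratios of 0.876, 0.862 and 0.777. The groups did not overlap, and the change was -0.25 ± 0.05 (adjusted p = 0.0149). Mrpl18 fell by 0.25 (adjusted p = 0.0432). Mrpl38, Mrpl46 and Mrpl48 of the same structure were at -0.10, -0.04 and -0.01 and were not called. The proteins of the stalks that bind translation factors or move tRNA were not called either: Mrpl10 was at -0.07, Mrpl11 at -0.12, Mrpl12 at -0.10 and Mrpl1 at -0.07. Around the centre that forms the peptide bond, Mrpl3 was called lower with 1 probe at -0.25 (adjusted p = 0.0480) and not with the other at -0.07, and Mrpl2 and Mrpl27 were at -0.22 and -0.14 without a call.

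The smallest adjusted p among the members in hypothalamus was that of Mrpl55, a protein found in animal mitochondrial ribosomes. Its scaled ratios were 1.02, 0.969 and 1.00 on the fed arrays and 0.855, 0.864 and 0.842 on the fasted arrays, a change of -0.22 ± 0.04 (adjusted p = 0.00799). It also had the smallest residual SD of all member probes, 0.028. Mrpl51, whose promoter stretch holds ETS letters, had fed ratios of 0.995, 1.00 and 1.00 and fasted ratios of 0.803, 0.816 and 0.906, a change of -0.25 ± 0.05 (adjusted p = 0.0138). Mrpl28 had fed ratios of 1.08, 1.00 and 0.980 and fasted ratios of 0.890, 0.848 and 0.832, a change of -0.25 ± 0.05 (adjusted p = 0.0133). In each of these genes the fasted arrays lay below the fed arrays. The other large subunit genes called lower were Mrpl35 with both of its probes (-0.30 and -0.16), Mrpl57 (-0.27), Mrpl43 (-0.25), Mrpl49 (-0.23) and Mrpl37 (-0.19), with adjusted p between 0.0154 and 0.0382.

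The probe called higher was 1 of the 3 of Mrpl21. Its fed ratios were 1.00, 1.01 and 0.989 and its fasted ratios 1.11, 1.12 and 1.13, a change of 0.16 ± 0.04 (adjusted p = 0.0381). The other Mrpl21 probes were at 0.06 and -0.19 and were not called, so the direction of this gene depended on the probe. Mrpl58, a peptidyl-tRNA hydrolase that rescues stalled ribosomes, was at -0.15 with one probe and at 0.28 with the other, both uncalled. Mrpl42 had the largest measured decrease of all members in hypothalamus, -0.37 ± 0.12, and missed the threshold (adjusted p = 0.0729). The uncalled large subunit probes with the smallest residual SD were those of Mrpl27 and of Mrpl44, which carries an RNase III-like domain and was at 0.0017 (adjusted p = 0.987).

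In the small subunit, Mrps12, part of the decoding centre, had fed ratios of 1.01, 1.00 and 0.904 and fasted ratios of 0.848, 0.746 and 0.758 with the probe that was called, a change of -0.31 ± 0.06 (adjusted p = 0.0159). All fasted values were below all fed values with this probe. Its second probe was at -0.06 and was not called. Mrps24 and Mrps5, both at the entry of the mRNA channel, were called lower. Mrps24 had fed ratios of 1.08, 1.00 and 0.894 and fasted ratios of 0.827, 0.745 and 0.759, a change of -0.35 ± 0.07 (adjusted p = 0.0166) and the largest called decrease among the members. Mrps5 had fed ratios of 1.08, 1.00 and 0.917 and fasted ratios of 0.757, 0.840 and 0.847, a change of -0.29 ± 0.07 (adjusted p = 0.0274). Neither gene's groups overlapped.

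Mrps11 and Mrps7 lie on the side of the small subunit where mRNA leaves. Mrps11 had fed ratios of 1.05, 1.00 and 0.978 and fasted ratios of 0.799, 0.837 and 0.822, a change of -0.30 ± 0.06 (adjusted p = 0.0182). Mrps7 fell by 0.26 with 1 probe (adjusted p = 0.0381) and was at -0.11 with the other. Mrps16, which binds the body of the small subunit, fell by 0.17 (adjusted p = 0.0264). Mrps33 was called lower with 1 probe (-0.28) and not with the other (-0.18). The large subunit proteins that bear small subunit names were called lower too, Mrps18a at -0.24 (adjusted p = 0.0335) and Mrps30 at -0.21 (adjusted p = 0.0331), although the second Mrps30 probe was at 0.19 and was not called. Mrps36 fell by 0.33 (adjusted p = 0.0397). Of the uncalled small subunit probes, those with the smallest residual SD were Mrps10 at -0.01 (adjusted p = 0.923) and Mrps35 at -0.13 (adjusted p = 0.0890).

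In fasted cerebellum few members were called, and most of these were higher. Of the 85 probes, 10 were called higher (11.8%), 3 lower (3.53%) and 72 were not called, beside 9.66% called higher and 11.2% called lower over all probes. The share called higher was near the background, and the share called lower was below it. The median change was 0.064, that is 4.50% higher, against 0.0073 over all probes, and it turned to -0.067 when arrays were scaled at their 75th percentile, a scaling that moved the median of all probes to -0.12. The fasted arrays lay above all fed arrays for 28 member probes (32.9%, against 25.1% of all probes) and below them for 11 (12.9%, against 24.9%). The large subunit had 6 probes higher and 2 lower with a median of 0.067, and the small subunit 4 higher and 1 lower with a median of 0.017.

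**Figure D2:**
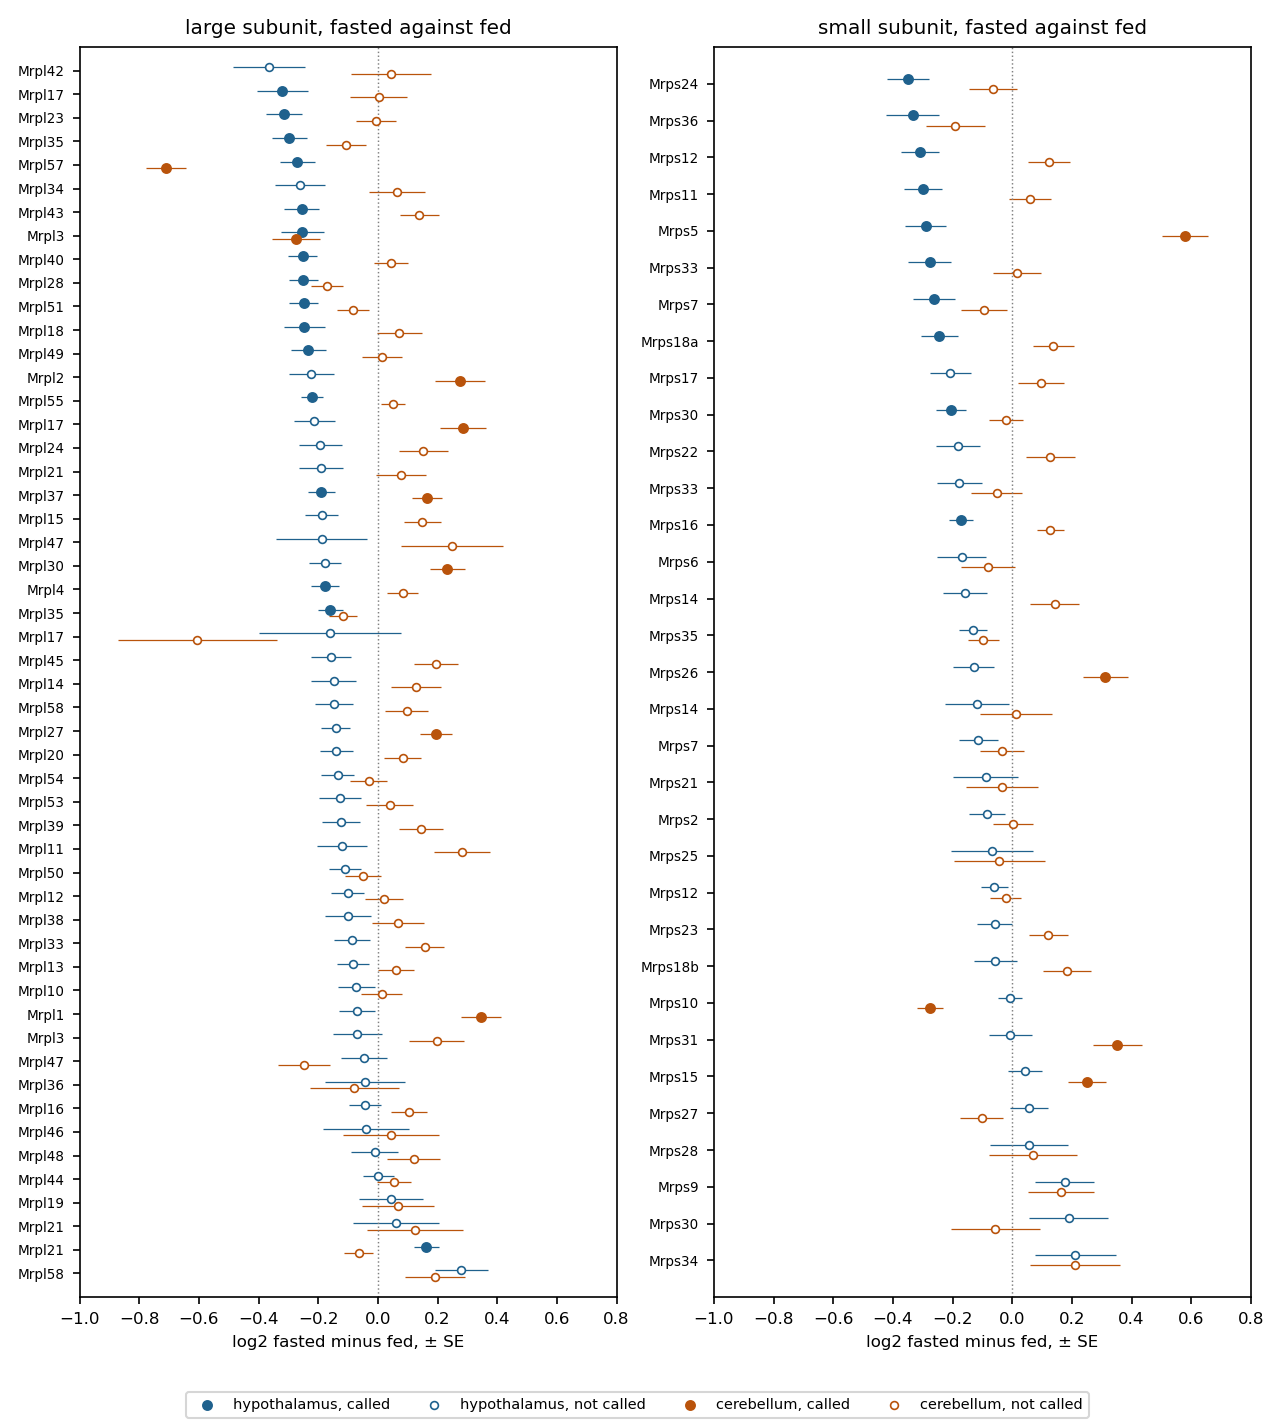
Change of each member probe (y axis, ordered by its change in hypothalamus) as log2 fasted minus fed (x axis) with its standard error, for hypothalamus (blue) and cerebellum (orange), large subunit on the left and small subunit on the right. Filled points are called at an adjusted p under 0.05. Most blue points lie left of 0, and the orange points spread to both sides, with Mrpl57 at -0.71 and Mrps5 at 0.58 farthest out.

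The largest increase in cerebellum was that of Mrps5, at the mRNA entry. Its fed ratios were 1.00, 1.00 and 0.928 and its fasted ratios 1.46 and 1.46, a change of 0.58 ± 0.08 (adjusted p = 0.000903). Mrpl1, which forms the stalk where used tRNA leaves, had fed ratios of 1.03, 1.00 and 0.884 and fasted ratios of 1.22 and 1.24, a change of 0.35 ± 0.07 (adjusted p = 0.00674). Both genes had fasted arrays above all fed arrays. Mrps31 was at 0.35 (adjusted p = 0.0150), with fasted ratios of 1.39 and 1.19, and Mrps26 at 0.31 (adjusted p = 0.0200), with fasted ratios of 1.13 and 1.36. Mrps15, an rRNA-binding protein of the small subunit, had fed ratios of 0.99, 1.07 and 1.00 and fasted ratios of 1.25 and 1.18, a change of 0.25 ± 0.06 (adjusted p = 0.0216). The remaining higher calls were Mrpl17 with 1 of 3 probes (0.28), Mrpl2 (0.28), Mrpl30 (0.23), Mrpl27 (0.20) and Mrpl37 (0.16).

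The 3 lower calls in cerebellum were of Mrpl57, Mrps10 and 1 probe of Mrpl3. Mrpl57 had fed ratios of 1.00, 1.01 and 0.954 and fasted ratios of 0.586 and 0.622, a change of -0.71 ± 0.07 (adjusted p = 0.000133) and the largest of any member in either region. Mrps10, a protein of the head of the small subunit, had fed ratios of 1.01, 0.960 and 1.00 and fasted ratios of 0.823 and 0.813, a change of -0.28 ± 0.04 (adjusted p = 0.00259). Mrpl3 was at -0.27 (adjusted p = 0.0406) with the called probe and at 0.20 (adjusted p = 0.175) with the other. Uncalled probes with the smallest residual SD were Mrpl55 (0.05) and 1 probe of Mrpl35 (-0.12) in the large subunit and Mrps16 (0.13) and Mrps35 (-0.10) in the small subunit. Mrpl17 ranged from -0.61 to 0.28 over its 3 probes in cerebellum.

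**Figure D3:**
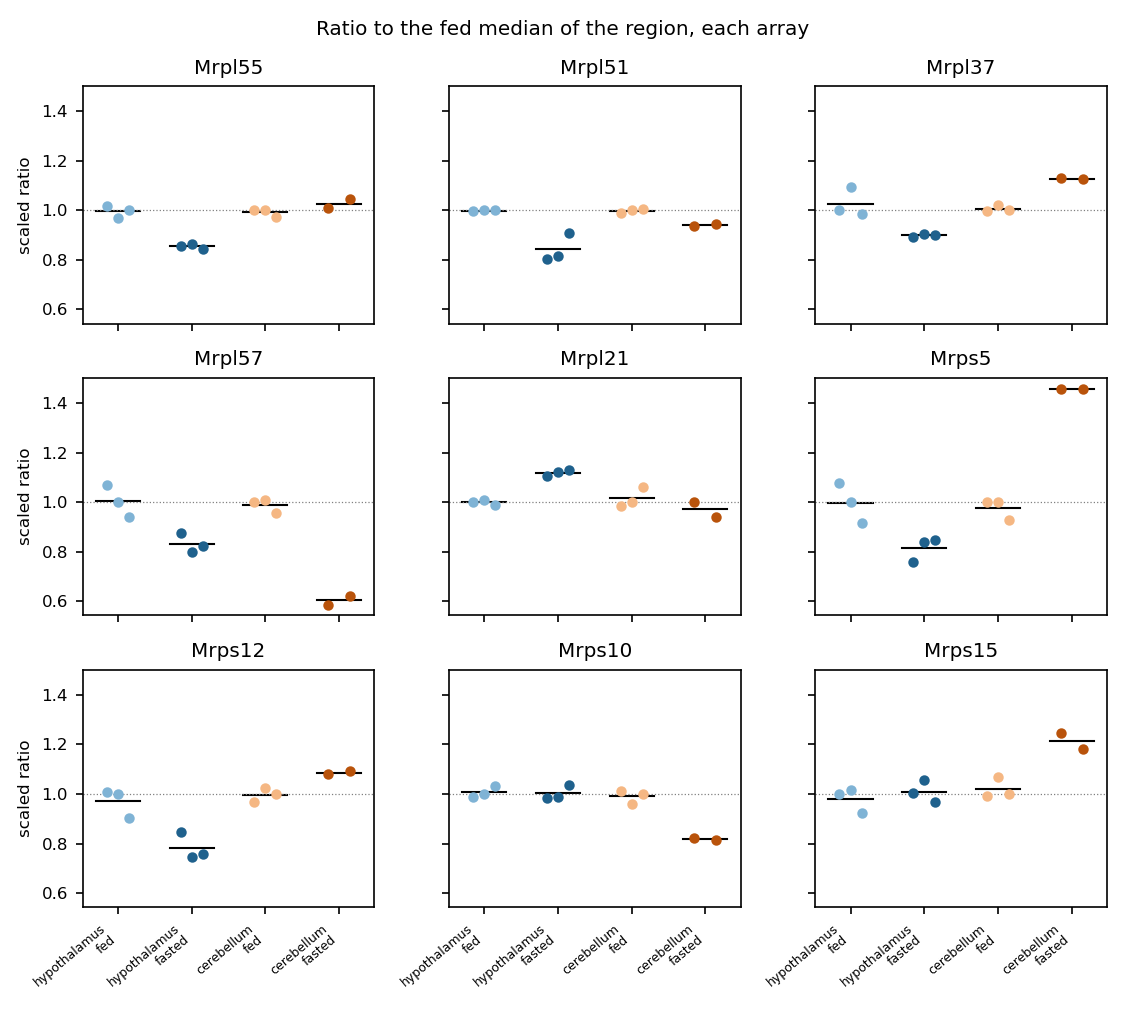
Scaled ratio to the fed median of the region (y axis) on each array of the 4 groups (x axis) for 9 members, with the probe that was called where a gene has several. Points are arrays and black bars are group means on the ratio scale. Mrps5 lies below the fed arrays in fasted hypothalamus and at 1.46 on both fasted arrays of cerebellum, and Mrpl57 lies below the fed arrays in both regions.

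Whether the change differed between regions was tested as an interaction, the change in hypothalamus minus that in cerebellum. This difference was called below 0 for 19 members and above 0 for 3, beside 9.01% of all probes below and 8.66% above. Its median over the members was -0.19, against 0.010 over all probes, and 73 of 85 members were below 0. The large subunit had 13 probes below and 2 above 0, and the small subunit 6 and 1. The difference between regions was largest for Mrps5, at -0.87 ± 0.10 (adjusted p = 0.000764), whose probe was called lower in hypothalamus and higher in cerebellum. The probe of Mrpl37 was the other that was called in opposite directions, with fed ratios of 1.00, 1.09 and 0.983 and fasted ratios of 0.893, 0.902 and 0.898 in hypothalamus, and fed ratios of 0.997, 1.02 and 1.00 and fasted ratios of 1.13 and 1.13 in cerebellum. Its difference was -0.35 ± 0.07 (adjusted p = 0.00769). Mrpl17 was called lower in hypothalamus with 1 probe and higher in cerebellum with another. Beside the 2 member probes called in opposite directions, 2 were called lower in both regions, those of Mrpl3 and Mrpl57. Shares of all probes with such joint calls were not counted.

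The other large subunit members called below 0 were Mrpl2 (-0.50), Mrpl17 with 1 probe (-0.50), Mrpl1 (-0.42), Mrpl30 (-0.41), Mrpl43 (-0.39), Mrpl45 (-0.35), Mrpl15 (-0.34), Mrpl27 (-0.34), Mrpl23 (-0.31), Mrpl40 (-0.30), Mrpl55 (-0.27) and Mrpl4 (-0.26). Their standard errors ran up to 0.11. Those of the small subunit were Mrps26 (-0.44), Mrps12 with 1 probe (-0.43), Mrps18a (-0.38), Mrps11 (-0.36) and Mrps16 (-0.30). Mrpl57 was called above 0, at 0.44 ± 0.09 (adjusted p = 0.0103), since it was lower in both regions and more so in cerebellum. Mrps10 was at 0.27 ± 0.06 (adjusted p = 0.0155) and the called Mrpl21 probe at 0.23 ± 0.06 (adjusted p = 0.0407). The uncalled probes with the smallest residual SD were Mrpl35 (-0.04) and Mrpl28 (-0.08) in the large subunit, and Mrps35 (-0.03) and the second Mrps12 probe (-0.04) in the small subunit. By arrays, 19 of the 85 member probes had all fasted arrays below the fed ones in hypothalamus and above them in cerebellum, against 5.04% of all probes. All fasted arrays were below in both regions for 7 member probes, near the 6.14% of all probes, and above in both for 0, against 5.22%.

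Calls depended on the noise of the probe, since the residual SD enters the standard error of limma's test. Shares of all probes by noise were not counted, so the counts here do not set the members apart from other probes. Of the 63 member probes with a residual SD under 0.1, 59 were below 0 in hypothalamus, 24 were called there, and 43 were above 0 in cerebellum. Of the 22 probes with a residual SD of 0.1 or more, 15 were below 0 in hypothalamus and 2 were called there. The 13 calls in cerebellum were all of less noisy probes. In hypothalamus the median change was -0.07 over the 22 noisier probes and -0.16 over the 63 less noisy ones. Probes of the same gene did not always agree: of the 11 genes with several probes, 8 had the same sign throughout in hypothalamus and 5 in cerebellum. In cerebellum the probes of Mrpl47 were at -0.25 and 0.25, those of Mrpl21 at -0.06, 0.08 and 0.12, those of Mrps12 at -0.02 and 0.12, and those of Mrps33 at -0.05 and 0.02. For the difference between regions, Mrpl17 had probes at -0.50, -0.32 and 0.45, Mrpl21 at -0.27, -0.06 and 0.23, Mrpl47 at -0.44 and 0.20, Mrpl3 at -0.27 and 0.02, Mrpl58 at -0.24 and 0.09, and Mrps30 at -0.185 and 0.25. A change assigned to these genes therefore depends on which probe is read.

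The other genes of mitochondrial gene expression, taken from lists by function, had medians nearer to that of all genes in hypothalamus than the ribosomal proteins had. Each gene is counted once in these lists, with its least noisy probe. On this basis the members had 21 genes called lower and 1 higher of 72 with a median of -0.14 in hypothalamus, and all 18048 genes had 1693 called lower and 1075 higher with a median of -0.02. The medians of the lists were 0.028 for other ribosomal proteins, -0.0036 for translation factors, -0.062 for assembly genes, 0.032 for genes of mitochondrial DNA expression, -0.068 for aminoacyl-tRNA synthetases and -0.092 for transcription regulators, and none of these differences between lists was tested. Of 4 measured ribosomal proteins named otherwise, Dap3, the GTP-binding protein of the small subunit, was called higher in hypothalamus at 0.19 (adjusted p = 0.0445), while its second probe was at -0.13. Gadd45gip1, a large subunit protein, was called higher in cerebellum at 0.31 (adjusted p = 0.0226). In hypothalamus Gadd45gip1 was at -0.11, Chchd1 at -0.29 and Ptcd3 at 0.16, and none of them was called. The median of this list thus rested on 4 genes and on which Dap3 probe is read.

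Among 13 translation factors, 2 were called higher and 1 lower in hypothalamus. The lower one was Mrrf, which splits ribosomes after termination. Its fed ratios were 1.07, 1.00 and 0.957 and its fasted ratios 0.731, 0.689 and 0.704, a change of -0.51 ± 0.05 (adjusted p = 0.00112) and larger than that of any ribosomal protein in that region. The higher ones were the initiation factor Mtif2 (0.17) and the elongation factor Guf1 (0.14). In cerebellum 1 factor, the release factor Mtrf1 (0.23), was called higher and 5 were called lower. Over all 18048 genes in cerebellum 1208 were called higher and 2825 lower. The lower factors were Taco1, an activator of the translation of cytochrome oxidase subunit I, at -0.93, Mtif2 at -0.59 (its second probe was at 0.55, adjusted p = 0.0506), the elongation factors Gfm2 and Gfm1 at -0.41 and -0.38, and the RNA-stabilising protein Lrpprc at -0.40.

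Of 22 genes for assembly of the ribosome and modification of its RNA, 1 was called lower in hypothalamus, the endoribonuclease Ybey at -0.26, and 5 were called lower in cerebellum, the helicase Dhx30 (-0.51), Fastkd2 (-0.40), Ybey (-0.27), Eral1 (-0.23) and Noa1 (-0.20). Mrm2, an rRNA methyltransferase, was called higher there (0.19). Of 14 genes for expression and copying of mitochondrial DNA, the polymerase Polg was higher in hypothalamus (0.17) and lower in cerebellum (-0.63). Hsd17b10, a subunit of mitochondrial RNase P, was lower in hypothalamus (-0.23), and in cerebellum Polg2 was higher (0.18) and the transcription factor Tfb2m (-0.61) and the helicase Twnk (-0.42) were lower. Of 16 mitochondrial aminoacyl-tRNA synthetases, Yars2 (-0.30) and Mars2 (-0.23) were lower and Hars2 (0.18) higher in hypothalamus, and Tars2 (-0.31), Hars2 (-0.26), Mars2 (-0.22) and Iars2 (-0.16) were lower in cerebellum.

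Of 9 transcription regulators of mitochondrial genes, 3 were called lower in hypothalamus. Ppargc1a, a coactivator of genes for mitochondrial proteins, had fed ratios of 1.07, 1.00 and 0.995 and fasted ratios of 0.846, 0.832 and 0.826, a change of -0.29 ± 0.05 (adjusted p = 0.00875). The nuclear receptor Esrra was at -0.32 (adjusted p = 0.0259) and the coactivator Ppargc1b at -0.26 (adjusted p = 0.0458). In cerebellum Gabpb1, a subunit of the ETS family factor GABP, was called lower at -0.62 (adjusted p = 0.000134), while its second probe was at 0.21 and uncalled. The coactivator Pprc1 was called lower at -0.19.

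Several marker lists of tissues and cell types moved with the groups. Of 8 thalamus markers 7 were called lower in fasted hypothalamus, with a median change of -0.46. The list's median scaled ratio was 0.962 to 1.05 on the fed and 0.723 to 0.745 on the fasted arrays. Of 8 markers of cerebellar granule and Purkinje cells 5 were called higher there, with array medians of 0.966 to 1.04 in fed and 1.52 to 1.65 in fasted hypothalamus, and of 8 markers of meninges and pericytes 6 were called higher, with array medians of 0.973 to 1.00 and 1.17 to 1.27. Of 8 oligodendrocyte markers 3 were called lower in hypothalamus, with array medians of 0.997 to 1.07 in fed and 0.828 to 0.911 in fasted arrays. In cerebellum 4 oligodendrocyte, 3 meninges and pericyte and 2 thalamus markers were called lower and 1 thalamus marker higher. The array medians of granule and Purkinje cell markers were 0.987 to 1.00 in fed and 0.957 to 0.966 in fasted cerebellum. Those of oligodendrocyte markers were 0.995 to 1.03 and 0.868 to 0.872 there. Meninges and pericyte markers were at 0.913 to 1.00 and 0.829 to 0.887, and thalamus markers at 0.997 to 1.00 and 0.930 to 0.955. Ratios do not show which markers are near background. The part of these shifts in the members' changes was not tested, and in pooled bulk tissue fewer cells of a type cannot be told apart from less RNA per cell.

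**Figure D4:**
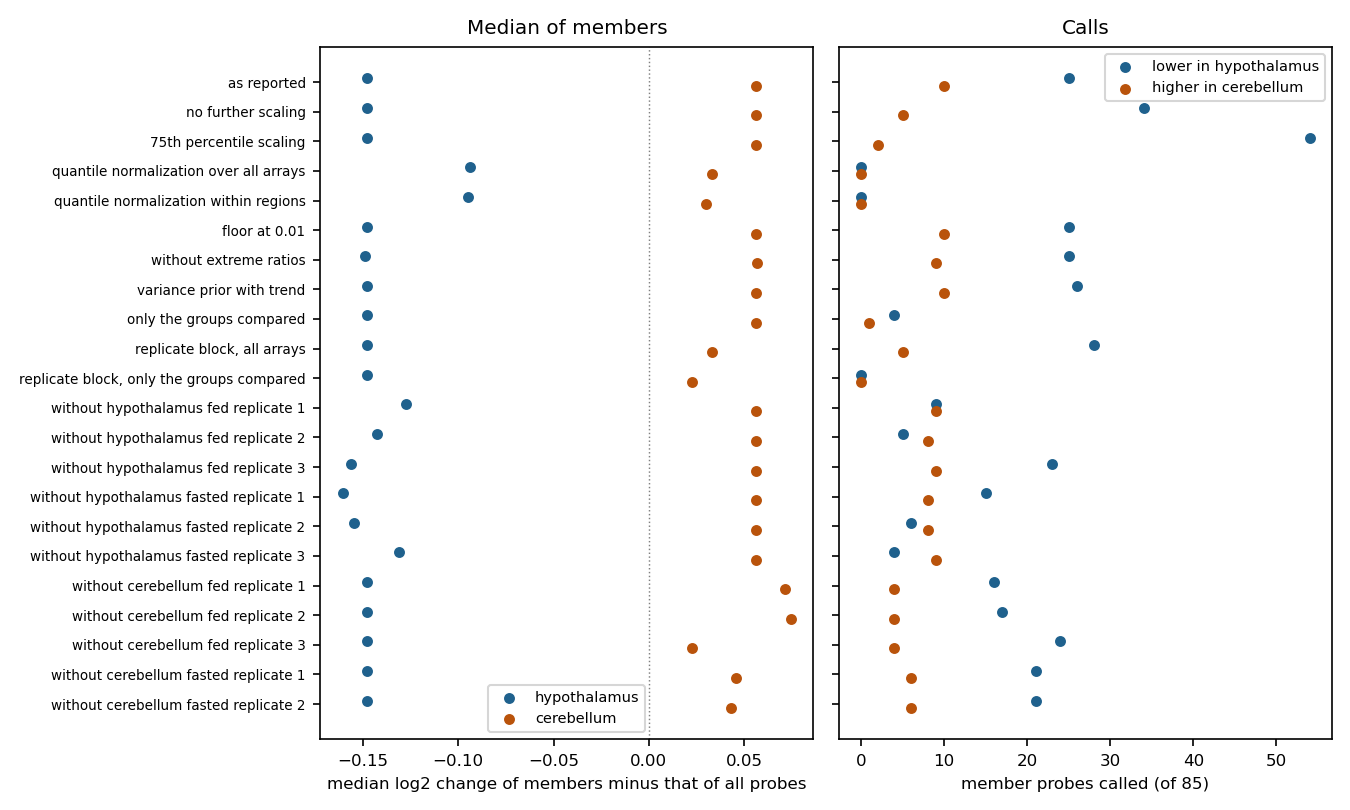
Left, median log2 change of the 85 member probes minus that of all probes (x axis) under each setting (y axis). Right, number of member probes called lower in hypothalamus (blue) and higher in cerebellum (orange). The median stays below 0 in hypothalamus and above 0 in cerebellum under every setting drawn, while the calls range from 0 to 54 in hypothalamus. Over all probes the lower calls in hypothalamus range from 13 to 8540.

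The number of calls in hypothalamus depended on single arrays. The 25 lower calls became 9 and 5 without fed arrays 1 and 2 of hypothalamus, 15, 6 and 4 without fasted arrays 1, 2 and 3, and 16 without fed array 1 of cerebellum, which enters through the shared estimate of spread. Over all probes the 2760 lower calls became 1279 and 1309, then 2105, 1366 and 1170, and 2167 in the same refits. Mrpl40 and Mrpl55 were called lower without any 1 of the 11 arrays, and probes outside the members that kept their call throughout were not counted. In cerebellum the 10 higher calls became 4 without each of the fed arrays in turn and 6 without either fasted array, and Mrps5 and Mrpl1 were called higher in each case. Over all probes the 3382 higher calls there became 2508, 2811 and 2612 without the fed arrays and 2067 and 2742 without the fasted arrays. Fitted on the 6 arrays of hypothalamus alone, 4 of the 85 member probes were called lower, near the 3.94% of all probes in that fit.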

How the data were processed

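The deposited values are ratios, which the authors made from single-colour array signals. For every probe the fed median of its region is 1, as tested on the deposited values. The scanner software and any background correction or scaling are not stated in the sources used here, and the number of arrays limits the precision. Each array was divided by its median, floored at 0.1 and log2-transformed. With limma 3.58.1 (R 4.3.3), 4 group means were fitted over 11 arrays, with 7 residual and 1.82 prior degrees of freedom and two-sided moderated tests adjusted by Benjamini-Hochberg over 34999 probes. The script was tested on simulated data. Of the probes, 21590 had 1 gene symbol, 681 several and 12728 none in the platform annotation. All 72 member genes matched RefSeq by Entrez ID, and 3 probes with several symbols, of which 1 was an Mrpl or Mrps symbol, were left out. Named were all called member probes, the 2 uncalled probes of each subunit with the smallest residual SD, genes whose probes disagreed, and called genes of the other lists (up to 4 with the largest change, and the rest after their values were seen where 5 or fewer were called); other members were named for their place in the ribosome after their values were seen. The members and lists were chosen with earlier results of these data known. Replicate numbers were not taken to pair arrays, and the alternatives were other scalings, floors, filters, variance estimates, a replicate block, 1 probe per gene and leaving out each array.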

Additional observations from a re-analysis of the deposited data

Results flagged for a closer look

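For 22 member probes the change with fasting differed between hypothalamus and cerebellum by limma's test of the interaction (adjusted p under 0.05 over all probes). The values are the log2 change in hypothalamus minus that in cerebellum. Below 0 were Mrps5 at -0.87, Mrpl2 at -0.50, Mrpl17 at -0.50, Mrps26 at -0.44, Mrps12 at -0.43, Mrpl1 at -0.42, Mrpl30 at -0.41, Mrpl43 at -0.39, Mrps18a at -0.38, Mrps11 at -0.36, Mrpl37 at -0.35, Mrpl45 at -0.35, Mrpl15 at -0.34, Mrpl27 at -0.34, Mrpl23 at -0.31, Mrps16 at -0.30, Mrpl40 at -0.30, Mrpl55 at -0.27 and Mrpl4 at -0.26. Above 0 were Mrpl57 at 0.44, Mrps10 at 0.27 and Mrpl21 at 0.23. Without any 1 of the 11 arrays, 9 of the 19 lower and 1 of the 3 higher calls were kept in every case. The share kept among all called probes was not counted.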

How the results depend on the processing

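No called member changed sign under any alternative, and 837 of the repeated tests of called members kept their call while 456 lost it. The kept ones include the setting with 1 probe per gene, which reuses the reported fit and could not lose a call. In hypothalamus the members' median was -0.19 with no further scaling, -0.25 with 75th percentile scaling and -0.0905 and -0.0897 with quantile normalization (all arrays together, then each region apart), and the lower calls were 54 with 75th percentile scaling, 0 with either quantile normalization (10 at an unadjusted p under 0.05 in limma) and 4 when fitted on the groups compared alone. Over all probes 8540 were called lower with 75th percentile scaling, 13 and 15 with quantile normalization, and 1380 on the groups compared alone. In cerebellum the higher calls were 5 with no further scaling, 2 with 75th percentile scaling and 0 with either quantile normalization. The lower calls there were 4 with no further scaling and 14 with 75th percentile scaling, beside 4632 and 9354 over all probes. The excess of higher over lower calls as reported was thus not kept with 75th percentile scaling. On the groups compared alone 1 member was called higher there and 4 members were called in all. Each quantile normalization left 1 member call there, a lower one. Over all probes the higher calls in cerebellum were 2742, 1734, 56 and 117, and 2262 on the groups compared alone. The median in cerebellum was 0.032 without scaling, -0.067 with 75th percentile scaling, and 0.033 and 0.027 with quantile normalization. The 75th percentile scaling moved the median of all probes by -0.11 in hypothalamus and -0.13 in cerebellum, and the members' median minus that of all probes was -0.15 and 0.056 under it as under the reported scaling. The difference between regions had a median of -0.17 with 75th percentile scaling, -0.13 and -0.13 with quantile normalization, where 0 members were called by limma (4 and 5 at an unadjusted p under 0.05), and -0.22 with 1 probe per gene. Over all probes 153 and 128 were called for this difference with quantile normalization. Of all calls in hypothalamus 44.6% were higher as reported, 24.1% without scaling, 7.72% at the 75th percentile and 59.4% with quantile normalization of all arrays together (10 of 25 calls with each region apart); in cerebellum these shares were 46.3%, 37.2%, 15.6%, 12.7% and 25.1%. Leaving out 1 array gave 4 to 25 calls, 4 to 24 lower calls and medians of -0.17 to -0.11 in hypothalamus, 6 to 14 calls, 4 to 9 higher calls and medians of 0.024 to 0.086 in cerebellum, and 15 to 24 calls, 13 to 22 lower calls and medians of -0.23 to -0.18 for the difference. Of all probes 5.54% to 15.5% were then called in hypothalamus, 13% to 21.6% in cerebellum and 12.4% to 18% for the difference. Deviations of same-numbered arrays correlated at Pearson's r of 0.074, 0.095 and 0.072 in hypothalamus, each the highest of its array (Spearman's rho 0.169, 0.116 and 0.187), and at r of 0.040 and -0.020 in cerebellum, so whether the numbers mark shared runs is unsettled. With the replicate block over all arrays, hypothalamus had 28 lower calls, without Mrpl4 and without the higher call of Mrpl21. Cerebellum then had 5 higher and 5 lower calls and a median of 0.039. Over all probes hypothalamus then had 2903 lower calls and cerebellum 3207 higher and 4113 lower calls. With the replicate block on the groups compared alone, limma made 0 member calls in hypothalamus (46 at an unadjusted p under 0.05) and 0 in cerebellum (11), where the members' median was 0.024. Over all probes 48 were called in hypothalamus and 0 in cerebellum in that fit. Ratios to a fed median keep the fed arrays near 1 by the way they are made. In hypothalamus the upper quartile of all log2 scaled ratios was 0.089, 8e-04 and 0.0037 on fed and 0.12, 0.14 and 0.16 on fasted arrays. Scaling at the 75th percentile and quantile normalization act on this unlike spread. The causes of the shifts between settings were not tested. Small changes of noisy probes could not be seen with 2 or 3 arrays a group, signal over background is unknown, and mice within a pool could not be compared.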
